A study of Mus musculus with 35 samples.

Results

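The 59 genes described here encode the extracellular and nuclear parts of the Wnt pathway: 19 Wnt ligands, 10 Frizzled receptors, 2 co-receptors, 3 alternative receptors, 6 secreted Wnt-binding antagonists, 5 genes of the Dickkopf class, 7 R-spondins and R-spondin receptors, 4 nuclear factors of the Tcf/Lef family and 3 genes that the pathway itself induces. The rule that chose them is a list of gene symbols and uses no measured value, and all 59 were found among the 30723 gene symbols of the deposited tables, with 116 transcripts between them. Bulk RNA-seq libraries came from CD1 mouse embryos, an outbred stock, at embryonic day 11.5. The tissues were dorsal brain (dB, 6 libraries), ventral brain (vB, 6), the frontonasal prominence (FNP, 6), the mandibular prominence (MNP, 6), the maxillary prominence (MXP, 5) and the limb bud (limb, 6). In the sample labels the brain tissues appear as dorsal and ventral neural tube, and in the protocol as brain. All embryos were wild type and untreated, each library pooled tissue of several embryos, and the submitters describe the libraries of a tissue as independent biological replicates.

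Wnt ligands are secreted glycoproteins that bind a Frizzled receptor together with Lrp5 or Lrp6. In the canonical branch this stabilises β-catenin, which enters the nucleus and switches on genes through Tcf/Lef proteins. Secreted Frizzled-related proteins and Wif1 bind the ligands, Dickkopf proteins bind the co-receptors, and R-spondins act through Lgr receptors to keep Frizzled proteins at the cell surface. In the embryo the pathway patterns the dorsal neural tube and forebrain, the outgrowth and fusion of the facial prominences and the axes of the limb.

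Expression is given as FPKM, fragments per kilobase of transcript scaled to the mapped fragments of a library, summed over the transcripts of a gene. Differences were tested with limma on log2(FPKM + 1), and a gene was called where the Benjamini-Hochberg adjusted p was below 0.05 and the fold was at least 2 on that scale, which understates the change of genes at low FPKM. A gene entered the test where its mean reached 1 FPKM in 1 or more tissues, which held for 13934 genes and for 55 of the 59 members. A level in a bulk library cannot tell fewer cells of a type apart from less RNA per cell, and since each library is a pool, the tests measure the spread between pools and not between embryos.

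Between 11742 and 12955 genes reached 1 FPKM in each library. Limb genes summed to 182 to 432 FPKM in limb libraries, neural progenitor genes to 567 to 800 FPKM in brain libraries and facial genes to 153 to 296 FPKM in facial libraries. Some libraries stood apart. Transcripts under 200 bases held 19.1 to 39.2% of the FPKM in the replicate 1 libraries and 0.653 to 10.3% in the others. The gene with the highest FPKM held 14.2 to 36.0% and 1.33 to 7.61%. The main test used FPKM without further scaling between libraries. The 4 ventral brain markers Foxa2, Nkx2-1, Nkx2-2 and Shh summed to 33.9 FPKM in vB replicate 4 and to 89.6 to 145 FPKM in the other vB libraries, and they reached 57.1 FPKM in FNP replicate 4. The mesenchymal markers ran between 5.36 and 306 FPKM within vB, with replicates 1, 4 and 5 at 166 or above.

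Of the 59 members, 48 were called between at least 1 pair of the 6 tissues, where 21.3% of all genes tested were called. The counts were 14 of 19 ligands, 8 of 10 Frizzled receptors, 1 of 2 co-receptors, 2 of 3 alternative receptors, 4 of 6 Wnt-binding antagonists, and every member of the Dickkopf class (5), the R-spondin group (7), the nuclear factors (4) and the induced genes (3). A mean of at least 1 FPKM was reached in every tissue by 32 members and in none by 4. MXP held the highest mean for 14 members, dB for 12, MNP for 11, limb for 9, FNP for 8 and vB for 5. The lowest mean lay in vB for 31 members. The same counts over all genes are not given here, so these cannot be set apart from a pattern of all genes. Replicates 1 to 3 shared no sequencing run with replicates 4 to 6, and each of these sets held more than 1 run. Among replicates 1 to 3 the run changed with the replicate number, except that limb replicates 2 and 3 shared a run. Within replicates 1 to 3 alone 47 members were called, and within replicates 4 to 6 alone 43 were. The shares of all genes given throughout are from fits on all 35 libraries. None is given for fits on fewer libraries or under other settings, so counts from those fits have no share beside them. A rise or fall in such a count cannot be set apart from one over all genes.

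**Figure D1:**
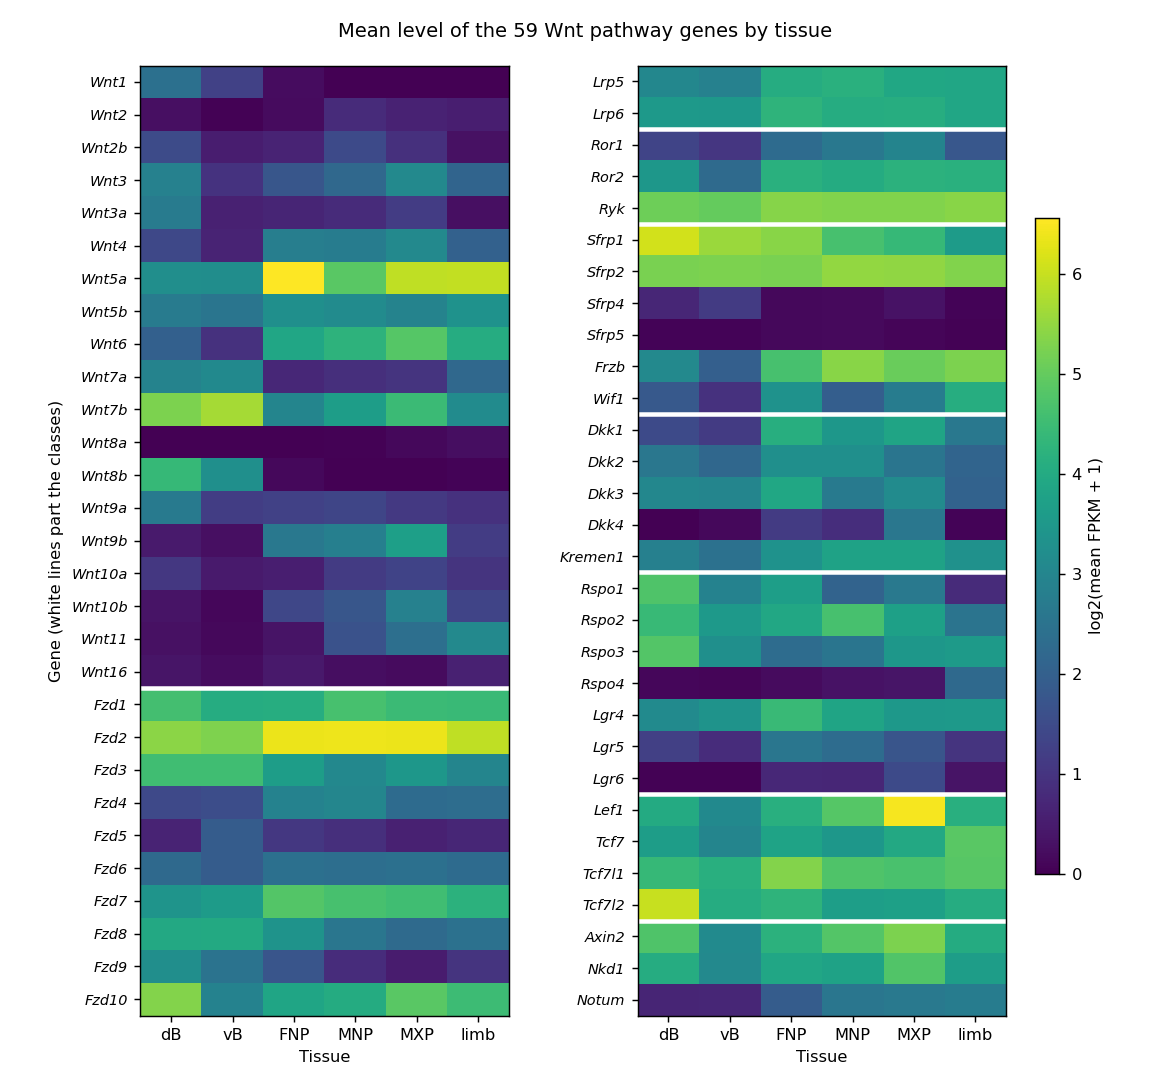
Mean level of the 59 members in each tissue as log2(mean FPKM + 1), with rows grouped by class from ligands at the top left to induced genes at the bottom right. The darkest rows are genes such as Wnt8a and Sfrp5 that stayed under 1 FPKM everywhere. Bright cells include Lef1 in MXP, Tcf7l2 in dB and Wnt5a in FNP, and Wnt5a averages 61.2 FPKM in limb as well.

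Neural tissues (dB and vB, 12 libraries) were set against facial tissues (FNP, MNP and MXP, 17 libraries) and against limb, and 10 members were higher and 20 lower in neural than in facial tissue, beside 11.3% of all genes called (6.64% higher and 4.64% lower). The largest of these differences belonged to ligands: Wnt8b was higher in neural tissue, and Wnt6 and Wnt9b were lower. Against limb, 10 members were higher and 11 lower in neural tissue (12.4% of all genes, 8.05% higher and 4.36% lower), led by Wnt8b and Rspo1 on the higher side and Wnt11 on the lower. Facial against limb gave 8 higher and 5 lower (2.62% of all genes, 1.51% higher and 1.11% lower), led by Rspo1 and Wnt9b on the higher side and Rspo4 on the lower. With transcripts under 200 bases left out and the rest rescaled, that last comparison gave 13 higher and 5 lower, and the share of all genes under that setting is not given here. Within replicates 1 to 3 the counts called were 28, 26 and 15 for these comparisons in the same order, and within replicates 4 to 6 they were 29, 21 and 9. Calls not made within replicates 4 to 6 were those of Fzd8, Wif1 and Lgr5 between neural and facial tissue, of Fzd8 between neural tissue and limb and of Sfrp1, Wif1, Dkk1, Lgr5 and Tcf7 between facial tissue and limb. Within replicates 1 to 3 those of Fzd2, Lrp5, Kremen1 and Rspo3 between neural and facial tissue were not made. The comparisons share libraries, so their values stand side by side and are not independent of each other. The median log2 fold change over the 55 tested members was -0.53 for neural against facial, -0.23 for neural against limb and 0.29 for facial against limb, where the medians over all genes tested were -0.02, -0.01 and 0.02.

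Within the brain, 14 members were higher and 1 was lower in dB than in vB, beside 1.39% of all genes called (0.954% higher and 0.438% lower). The 3 largest differences were those of the receptor Fzd10, the ligand Wnt3a and the nuclear factor Tcf7l2. The median over the tested members was 0.45, and 0.05 over all genes tested. Within replicates 1 to 3 alone 20 members were called, and within replicates 4 to 6 alone 6 were, where the calls of Wnt1, Wnt6, Fzd5, Fzd10, Ror2, Frzb, Rspo3, Axin2 and Nkd1 were not made.

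Within the face, FNP against MNP gave 4 higher and 1 lower (2.68% of all genes, 1.69% higher and 0.99% lower), led by Rspo1, Wnt5a and Wnt11. FNP against MXP gave 3 higher and 9 lower (2.28%, 1.53% higher and 0.746% lower), led by Lef1, Wnt11 and Dkk4, and MNP against MXP gave 3 calls, all lower in MNP (1.03%, 0.689% higher and 0.344% lower), which were Dkk4, Lef1 and Wnt10b. In the same order, the counts called were 6, 12 and 1 within replicates 1 to 3 and 2, 4 and 1 within replicates 4 to 6. MXP has no replicate 4, so its comparisons within replicates 4 to 6 rest on MXP replicates 5 and 6 only. The calls left within replicates 4 to 6 were Rspo1 and Wnt11 between FNP and MNP, Wnt3, Wnt11, Dkk4 and Lef1 between FNP and MXP, and Dkk4 between MNP and MXP. Within replicates 1 to 3 the calls of Rspo3 and Axin2 between FNP and MXP and of Wnt10b and Lef1 between MNP and MXP were not made. These 3 comparisons share libraries too.

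Among the ligands, Wnt8b, a gene known from the dorsal forebrain, was the most neural. Its lowest, median and highest values were 4.06, 13.9 and 28.2 FPKM in neural libraries and 0, 0 and 0.544 FPKM in facial libraries, with 0.278 FPKM as the highest in limb. The groups did not overlap in either comparison. The log2 fold change was 3.72 (SE 0.10, adjusted p = 6.77e-24) against facial tissue and 3.71 (SE 0.14, adjusted p = 6.39e-21) against limb. Wnt7b, a canonical ligand of the developing forebrain and of epithelia, had the highest level of the neural ligands, at 9.26, 43.7 and 70.3 FPKM in neural libraries and 4.90, 10.4 and 29.4 FPKM in facial libraries. Those groups overlapped through dB replicate 4 at 18.7 FPKM and vB replicate 4 at 9.26 FPKM, and the other 10 neural libraries, at 37.3 FPKM or more, were above every facial library. Limb libraries had 2.52, 8.48 and 12 FPKM. The difference was 1.69 (SE 0.23, adjusted p = 1.35e-07) against facial tissue and 2.29 (SE 0.30, adjusted p = 1.22e-07) against limb. Its relative Wnt7a, which patterns the dorsal side of the limb, ran at 4.35, 7.19 and 10.4 FPKM in neural libraries and 0.238, 0.757 and 1.71 FPKM in facial libraries, without overlap (2.14, SE 0.12, adjusted p = 9.19e-17). In limb it lay between them at 2.5, 3.62 and 4.82 FPKM, above every facial library, and facial tissue was lower than limb (-1.34, SE 0.15, adjusted p = 1.97e-08).

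Wnt1 and Wnt3a, ligands of the dorsal midline and the midbrain-hindbrain boundary, were present at lower levels. Wnt1 had 0.343, 2.29 and 7.07 FPKM in neural libraries and 0 FPKM as the median of facial libraries, with FNP replicates up to 0.422 FPKM. It was called higher in neural tissue against facial tissue (1.69, SE 0.13, adjusted p = 2.29e-13) and limb (1.76, SE 0.17, adjusted p = 1.13e-10). Wnt3a had 0.0614, 2.82 and 8.27 FPKM in neural libraries and 0, 0.230 and 0.366 FPKM in limb libraries, with neural tissue higher (1.39, SE 0.17, adjusted p = 1.71e-08). Its groups overlapped through vB replicate 1 alone.

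**Figure D2:**
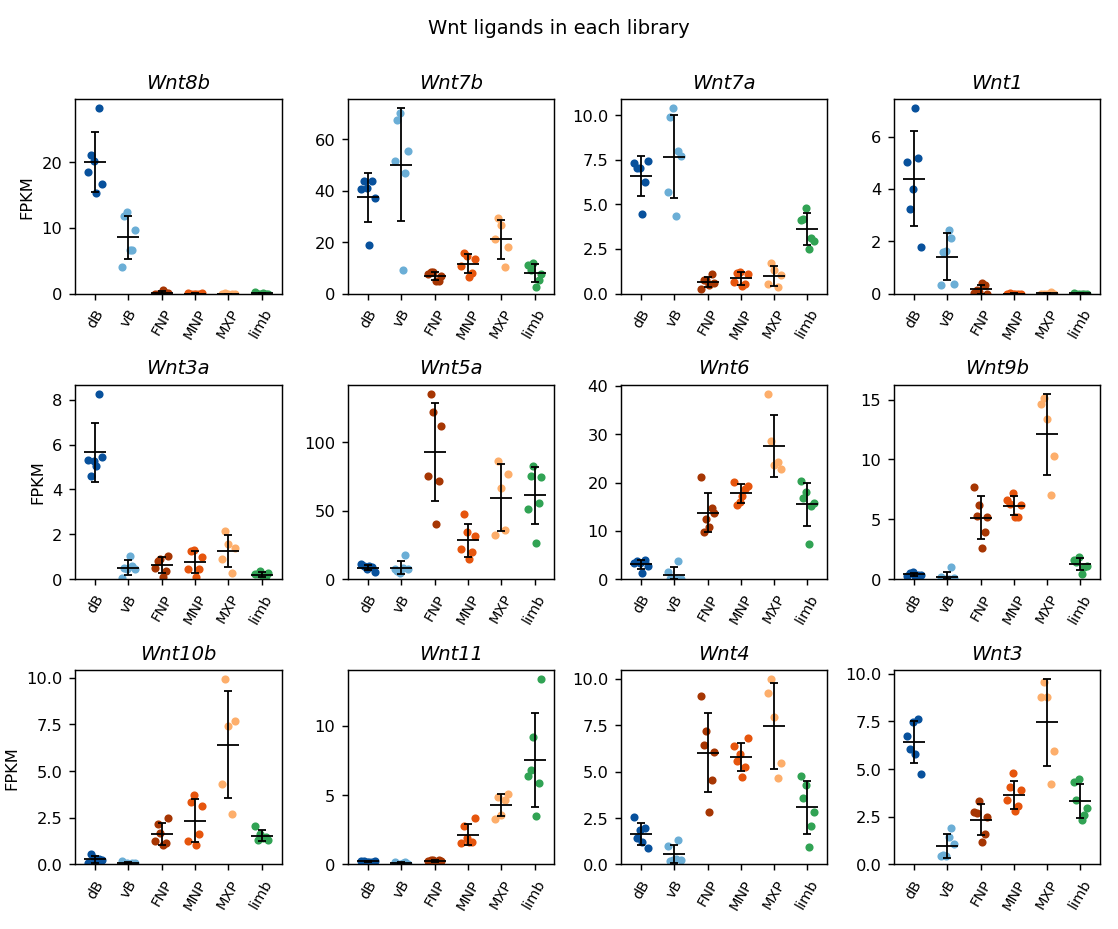
FPKM of 12 Wnt ligands in each library by tissue, 1 point per library, with bars at the mean and SD (n = 6, MXP n = 5). Wnt8b and Wnt1 are near 0 outside the brain, Wnt6, Wnt9b and Wnt10b run highest in MXP, and Wnt11 is at 0.331 FPKM or less in dB, vB and FNP and reaches 13.4 FPKM in limb.

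Other ligands were higher outside the brain. Wnt5a, which signals mainly without β-catenin and drives outgrowth of face and limb, had the highest FPKM of the ligands in face and limb, and it had 4.22, 7.85 and 17.2 FPKM in neural libraries, 14.3, 47.9 and 136 FPKM in facial libraries and 26.7, 65.4 and 83.0 FPKM in limb libraries. The difference of neural tissue was -2.53 (SE 0.21, adjusted p = 2.25e-12) against facial tissue, where only vB replicate 5 and MNP replicate 4 overlapped, and -2.72 (SE 0.27, adjusted p = 4.43e-10) against limb, where none did. Wnt6, a ligand of the surface ectoderm, had 0, 2.08 and 3.88 FPKM in neural libraries and 9.79, 18.7 and 38.4 FPKM in facial libraries. Its groups were fully apart (-3.00, SE 0.19, adjusted p = 2.45e-15), and limb at 7.27 to 20.3 FPKM was also above every neural library (-2.70, SE 0.25, adjusted p = 5.09e-11).

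Wnt9b, an ectodermal ligand needed for the closure of the lip in mice, was facial. Neural libraries held 0, 0.257 and 0.987 FPKM, facial libraries 2.58, 6.28 and 15.1 FPKM and limb libraries 0.439, 1.26 and 1.85 FPKM, so that neural and limb libraries overlapped and the facial ones stood above both. Neural tissue was lower than facial tissue (-2.67, SE 0.12, adjusted p = 1.58e-18), and facial tissue was higher than limb without overlap (1.89, SE 0.16, adjusted p = 2.49e-11). Wnt10b, a ligand of ectodermal placodes, had at most 0.534 FPKM in neural libraries, against 1.02 to 9.91 FPKM in facial libraries (-1.72, SE 0.13, adjusted p = 5.42e-13) and 1.29 to 2.08 FPKM in limb libraries (-1.11, SE 0.18, adjusted p = 2.88e-06). Wnt4 was lower in neural tissue, at 0.190, 1.13 and 2.57 FPKM, against 2.85, 6.04 and 9.97 FPKM in facial tissue (-1.86, SE 0.15, adjusted p = 2.35e-12). Surface epithelium markers, among them Krt5, Krt14 and Trp63, summed to 2.18 to 15.1 FPKM in neural libraries, 57.8 to 230 FPKM in facial libraries and 62.9 to 140 FPKM in limb libraries, and their part in the differences of Wnt6, Wnt9b, Wnt10b and Wnt4 was not tested.

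Wnt11, a ligand of the non-canonical branch, was the limb ligand of the set. It had no more than 0.331 FPKM in any brain or FNP library, 1.53, 1.77 and 3.37 FPKM in MNP, 3.28, 3.59, 4.62, 4.86 and 5.08 FPKM in the MXP libraries and 3.46, 6.60 and 13.4 FPKM in limb. The level in neural tissue was lower than in limb (-2.79, SE 0.14, adjusted p = 2.54e-17) and than in facial tissue (-1.24, SE 0.11, adjusted p = 1.09e-11), and facial tissue was lower than limb (-1.55, SE 0.14, adjusted p = 1.05e-10). The order was limb, MXP, MNP and then FNP with the brain tissues, and the MXP and limb libraries overlapped.

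Within the brain, 6 ligands were higher in dB. Wnt3a had 4.59, 5.29 and 8.27 FPKM in dB libraries and 0.0614, 0.478 and 1.04 FPKM in vB libraries, and Wnt3, its close relative, 4.73, 6.39 and 7.62 FPKM in dB and 0.429, 0.781 and 1.90 FPKM in vB. No library of one tissue reached the other for either gene. The log2 fold changes were 2.14 (SE 0.19, adjusted p = 3.61e-09) and 1.96 (SE 0.19, adjusted p = 1.80e-08). Wnt9a, which lies next to Wnt3a on chromosome 11, had 4.71, 4.92 and 7.48 FPKM in dB and 0.689, 1.14 and 2.55 FPKM in vB (1.5, SE 0.17, adjusted p = 2.00e-07). These 3 ligands, with Wnt8b, Rspo1 and Tcf7l2, were the members called within replicates 4 to 6 alone.

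Wnt8b was present on both sides of the brain, at 15.3, 19.3 and 28.2 FPKM in dB and 4.06, 8.15 and 12.5 FPKM in vB (1.19, SE 0.16, adjusted p = 4.61e-06). Its difference fell short of the fold threshold without vB replicates 1, 4 and 5 (0.76). Wnt1 had 1.78, 4.52 and 7.07 FPKM in dB and 0.343, 1.60 and 2.44 FPKM in vB (1.18, SE 0.19, adjusted p = 0.000115). Wnt6 had 1.21, 3.29 and 3.88 FPKM in dB and 0, 0.0473 and 3.82 FPKM in vB (1.35, SE 0.29, adjusted p = 0.00309), and the high vB library was replicate 5. Both genes overlapped between the tissues. Beside these calls, the mesenchymal markers summed to 166 to 370 FPKM in dB and 5.36 to 306 FPKM in vB, and the surface epithelium markers to 6.64 to 11.2 FPKM in dB and 2.18 to 15.1 FPKM in vB. Their part in the differences was not tested. With 3 vB libraries of high mesenchymal markers left out (replicates 1, 4 and 5), 21 members were higher and 1 was lower in dB. The share of all genes called in that fit is not given here, so the rise cannot be set apart from one over all genes.

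**Figure D3:**
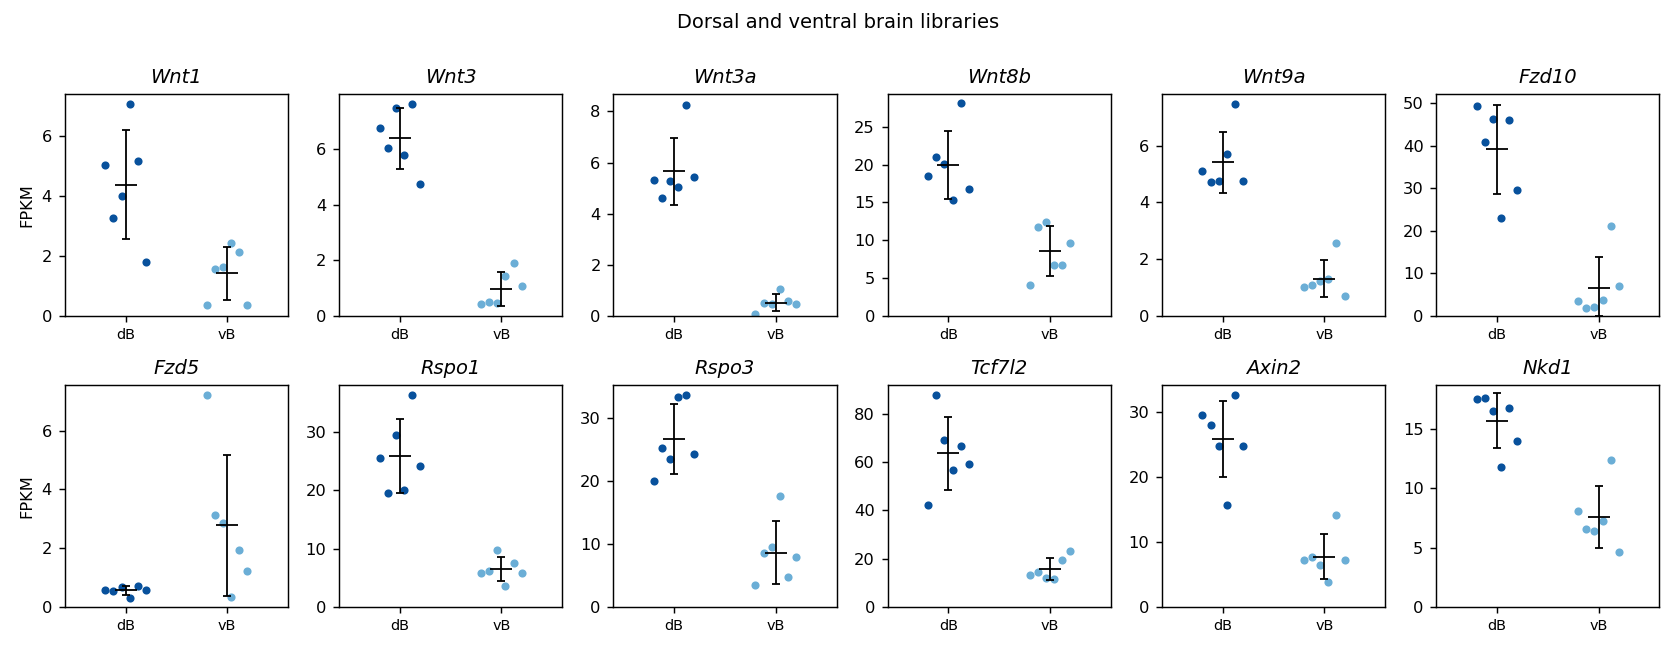
FPKM of 12 members called between dB and vB, 1 point per library (n = 6 each), with bars at the mean and SD. Every dB library lies above every vB library for Wnt3, Wnt3a, Wnt8b, Wnt9a, Fzd10, Rspo1, Rspo3, Tcf7l2 and Axin2, and Fzd5 is the gene with the higher values in vB.

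Within the face, Wnt5a was higher in FNP, at 40.2, 93.8 and 136 FPKM, than in MNP, at 14.3, 26.8 and 47.9 FPKM (1.67, SE 0.32, adjusted p = 0.000329), and 1 MNP library lay within the FNP range. The files hold 2 Wnt5a transcripts, which begin at chr14:28505473 and, within the first intron of the longer one, at chr14:28511405 (mm10, plus strand). The one with the downstream start made up 54.6% ± 5.53 of the Wnt5a FPKM in FNP and 31.2% ± 14.7 in MNP (SD, n = 6 each). In a fit over the 22324 transcripts whose mean reached 1 FPKM in 1 or more tissues, where 1.88% were called, it was higher in FNP (2.49, SE 0.44, adjusted p = 0.000200). The transcript with the upstream start was not called (1.09, SE 0.33, adjusted p = 0.0516). Splitting reads between transcripts that share most exons is an estimate, and Wnt5a was taken to this level after its values were seen.

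The ligands that differed between FNP and MXP were all lower in FNP. Wnt11 was lower in FNP, at 0.132, 0.288 and 0.331 FPKM, than in MXP (-2.05, SE 0.17, adjusted p = 1.98e-10) and than in MNP (-1.28, SE 0.17, adjusted p = 8.36e-07), with no overlap in either. Wnt10b had 1.03, 1.46 and 2.51 FPKM in FNP, 1.02, 2.39 and 3.69 FPKM in MNP and 2.73, 4.29, 7.41, 7.68 and 9.91 FPKM in the MXP libraries. It was lower in FNP than in MXP (-1.43, SE 0.21, adjusted p = 1.35e-05) and lower in MNP than in MXP (-1.12, SE 0.21, adjusted p = 0.00110), and the call against MNP was lost without MNP replicate 4 (-0.99) or MXP replicate 2 (-0.96). Wnt3 had 1.17, 2.60 and 3.32 FPKM in FNP, below its 4.22, 5.94, 8.75, 8.78 and 9.57 FPKM in MXP (-1.33, SE 0.20, adjusted p = 1.59e-05). Wnt7b had 4.90, 7.32 and 8.55 FPKM in FNP, below its 10.4, 17.9, 21.1, 26.8 and 29.4 FPKM in MXP (-1.43, SE 0.37, adjusted p = 0.0120). Wnt9b was lower in FNP, at 2.58, 5.23 and 7.67 FPKM, than in the MXP libraries, at 7.05, 10.3, 13.4, 14.6 and 15.1 FPKM, with 1 library of each overlapping (-1.10, SE 0.20, adjusted p = 0.000262). Without FNP replicate 4 the value was -0.96 and the call was lost. The surface epithelium markers summed to 57.8 to 117 FPKM in FNP, 70.8 to 126 FPKM in MNP and 68.2 to 230 FPKM in MXP. MXP replicate 5, with the lowest epithelial sum, had the lowest Wnt10b, Wnt3, Wnt7b and Wnt9b of its tissue, and the part of epithelial content in these calls was not tested.

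Ligand genes often lie in pairs, and 4 such pairs of members have no other protein-coding gene between them: Wnt10b and Wnt1 on chromosome 15 (11.7 kb apart), Wnt6 and Wnt10a on chromosome 1 (6.7 kb), Wnt9b and Wnt3 on chromosome 11 (24.4 kb) and Wnt3a and Wnt9a on chromosome 11 (16.2 kb). The distances are between the transcripts of the files, and the Wnt9b of RefSeq is longer and overlaps Wnt3. Wnt1 and Wnt10b had their highest means in different tissues. Wnt1 averaged 4.38 ± 1.82 FPKM in dB and 0.01 ± 0.02 in MXP, where Wnt10b averaged 0.27 ± 0.17 in dB and 6.40 ± 2.87 in MXP. Wnt3 averaged 6.40 ± 1.10 FPKM in dB and 7.45 ± 2.27 in MXP, and Wnt9b 0.39 ± 0.14 in dB and 12.1 ± 3.40 in MXP (SD, n = 6 in dB and 5 in MXP). Both of these had their highest mean in MXP, as did Wnt6 at 27.5 ± 6.45 and Wnt10a at 1.51 ± 0.37 FPKM (SD, n = 5), and Wnt3a and Wnt9a both had theirs in dB. Wnt2b was called only in pairs with limb (11.7% of all genes called for dB and 2.71% for MNP), being higher in dB (1.19, SE 0.14, adjusted p = 1.30e-08) and in MNP (1.18, SE 0.14, adjusted p = 1.07e-07). Wnt5b and Wnt10a were tested and not called in any pair, with tissue means of 4.86 to 9.13 FPKM for Wnt5b and 0.40 to 1.51 FPKM for Wnt10a. Wnt2, Wnt8a and Wnt16 were not tested, and no library had more than 1.46, 0.287 and 0.838 FPKM of them.

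Among the Frizzled receptors, Fzd3, which acts in axon guidance and planar polarity, and Fzd9 were neural. Fzd3 had 16.7, 21.5 and 32.9 FPKM in neural libraries, 6.08, 9.43 and 15.5 FPKM in facial libraries and 5.81 to 7.99 FPKM in limb libraries, with no overlap. The differences were 1.14 (SE 0.10, adjusted p = 5.17e-12) and 1.54 (SE 0.13, adjusted p = 5.46e-12). Fzd9 had 2.04, 5.46 and 10.0 FPKM in neural libraries and 0.293, 0.770 and 3.23 FPKM in facial libraries (1.82, SE 0.13, adjusted p = 3.34e-14), with the FNP libraries reaching into the neural range, and neural tissue was above limb, at 0.346, 0.719 and 2.36 FPKM (1.91, SE 0.17, adjusted p = 1.68e-11). Within the face it was higher in FNP, at 1.19, 2.43 and 3.23 FPKM, than in the MXP libraries, at 0.293, 0.311, 0.413, 0.482 and 0.538 FPKM (1.20, SE 0.20, adjusted p = 9.50e-05), a call not made within replicates 4 to 6 alone (1.00, adjusted p = 0.611). The neural progenitor markers summed to 35.1 to 167 FPKM in FNP and 17.1 to 46.5 FPKM in MXP. FNP replicates 4 and 5 had the highest sums (167 and 128 FPKM) and the lowest Fzd9 of FNP, at 1.19 and 1.72 FPKM. The part of neural content in the Fzd9 call was not tested.

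Fzd8, a receptor of the anterior forebrain, spread widely in neural libraries, at 1.82, 15.9 and 24.2 FPKM, against 2.58, 5.40 and 11.0 FPKM in facial libraries and 1.67 to 7.29 FPKM in limb. It was called against limb (1.37, SE 0.32, adjusted p = 0.000523) and against facial tissue (1.03, SE 0.24, adjusted p = 0.000432). The call against facial tissue was lost without any of dB replicates 2, 5 or 6, vB replicates 1, 2 or 3 or MXP replicate 3, with values between 0.94 and 1.00. Within replicates 4 to 6 alone Fzd8 was called neither against limb (0.97, adjusted p = 0.240) nor against facial tissue (0.53, adjusted p = 0.343). Fzd2, Fzd4 and Fzd7 were lower in neural tissue. Fzd2, the Frizzled with the highest mean FPKM in each tissue, had 13.4, 42.4 and 54.5 FPKM in neural libraries and 66.3, 82.0 and 98.3 FPKM in facial libraries (-1.09, SE 0.14, adjusted p = 7.06e-08; -0.96 without vB replicate 4). Fzd7 had 4.55, 9.84 and 18.8 FPKM in neural and 16.8, 24.7 and 30.6 FPKM in facial libraries (-1.23, SE 0.14, adjusted p = 2.41e-09). Fzd4 had 0.598, 1.64 and 3.61 FPKM in neural and 2.55, 6.22 and 8.75 FPKM in facial libraries (-1.28, SE 0.14, adjusted p = 7.40e-10). The groups were apart for Fzd2 and overlapped for Fzd7 and Fzd4.

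Fzd10 had the largest log2 fold change of the members within the brain. The dB libraries held 23.1, 43.4 and 49.3 FPKM and the vB libraries 1.78, 3.56 and 21.0 FPKM, where vB replicate 5 was the high one and the next was at 6.94 FPKM. The difference was 2.80 (SE 0.35, adjusted p = 1.77e-06), and 3.19 without vB replicate 5. Within replicates 4 to 6 alone it was not called (1.79, adjusted p = 0.421). In the face and limb Fzd10 ran between 7.15 and 41.4 FPKM. Fzd5, a receptor of the eye and ventral forebrain, was the only member lower in dB, at 0.296, 0.575 and 0.726 FPKM against 0.326, 2.40 and 7.20 FPKM in vB (-1.05, SE 0.25, adjusted p = 0.00782). The lowest vB library was replicate 4, the one with the low ventral markers. The call was lost without dB replicate 4 (-0.99) or vB replicate 1 (-0.78), 2 (-0.98) or 3 (-1.0). Fzd1 and Fzd6 were not called in any pair, with tissue means of 15.6 to 24.3 FPKM and 2.73 to 4.37 FPKM.

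The co-receptor Lrp5 was lower in neural tissue, at 1.64, 7.24 and 10.3 FPKM, than in facial tissue, at 8.68, 15.8 and 20.0 FPKM (-1.17, SE 0.19, adjusted p = 2.58e-06). The difference fell under the fold threshold without dB 4, vB 4 and limb 4 (-0.94) and within replicates 1 to 3 (-0.84). Lrp6 was not called in any pair, with tissue means of 10.4 to 18.1 FPKM. Of the alternative receptors, which bind Wnt5a and its relatives without β-catenin, Ror2 had 1.04, 7.69 and 12.2 FPKM in neural libraries and 12.2, 16.3 and 22.9 FPKM in facial libraries (-1.38, SE 0.16, adjusted p = 3.71e-09), and 12.7 to 21.5 FPKM in limb (-1.41, SE 0.21, adjusted p = 8.51e-07). Neither comparison had overlapping libraries. Ror1 had 0.0438, 1.33 and 2.62 FPKM in neural and 3.47, 4.92 and 8.51 FPKM in facial libraries (-1.49, SE 0.15, adjusted p = 1.22e-10). Within the brain Ror2 was higher in dB (1.39, SE 0.24, adjusted p = 0.000221), at 6.67 to 12.2 FPKM, a range that vB replicate 5 entered at 8.76 FPKM. Ryk was not called in any pair, with tissue means of 31.4 to 41.0 FPKM.

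Of the secreted antagonists, Sfrp1, which binds Wnts in the ventricular zone and elsewhere, had 18.4, 60.3 and 82.6 FPKM in neural libraries, 16.1, 27.0 and 55.6 FPKM in facial libraries and 6.99, 10.0 and 18.8 FPKM in limb libraries. It was above limb in neural tissue (2.20, SE 0.22, adjusted p = 3.54e-10) and higher in facial tissue than in limb (1.24, SE 0.21, adjusted p = 4.11e-05). Within the face it was higher in FNP, at 31.3, 39.0 and 55.6 FPKM, than in the MXP libraries, at 16.1, 16.5, 17.0, 22.5 and 27.3 FPKM (1.01, SE 0.27, adjusted p = 0.0142). That call was lost without FNP replicate 2, 3 or 6 or MXP replicate 2, 3 or 6, with values of 0.92 to 1.00. Sfrp2 was expressed at 36.4 to 43.9 FPKM on average in each tissue and was not called in any pair. Sfrp4 was called only between vB and limb, where 13.6% of all genes were (1.05, SE 0.11, adjusted p = 7.64e-10), at 0.669 to 1.80 FPKM in vB and at most 0.126 FPKM in limb, and Sfrp5, not tested, had at most 0.325 FPKM in any library.

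Frzb, an antagonist known from cartilage-forming mesenchyme, was lower in neural tissue, at 1.10, 5.66 and 9.12 FPKM, than in facial tissue, at 20.5, 34.3 and 46.1 FPKM (-2.54, SE 0.13, adjusted p = 3.06e-17), and than in limb, at 30.4, 36.3 and 45.9 FPKM (-2.77, SE 0.18, adjusted p = 7.34e-15). The groups were fully apart in both comparisons. In dB it had 6.61 to 9.12 FPKM, above the 1.10 to 4.71 FPKM of vB (1.24, SE 0.20, adjusted p = 0.000121). Mesenchymal markers summed to 5.36 to 370 FPKM in neural libraries, 509 to 1167 FPKM in facial libraries and 348 to 617 FPKM in limb libraries, and their part was not tested. Wif1, whose highest levels were in limb, had 0.200, 1.46 and 3.91 FPKM in neural libraries, 0.947, 5.03 and 17.0 FPKM in facial libraries and 12.3, 13.5 and 26 FPKM in limb libraries. Neural tissue was lower than limb (-2.72, SE 0.28, adjusted p = 8.91e-10) and than facial tissue (-1.25, SE 0.21, adjusted p = 8.04e-06), and facial tissue was lower than limb (-1.48, SE 0.27, adjusted p = 0.000145). FNP, at 1.83, 9.02 and 17.0 FPKM, was above MNP, at 0.947, 2.63 and 4.78 FPKM (1.26, SE 0.33, adjusted p = 0.0106), with overlap.

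In the Dickkopf class, Dkk1, an inhibitor needed for head formation and itself a target of the pathway, was facial. It had 0.150, 1.64 and 3.08 FPKM in neural libraries, 6.35, 11.6 and 26.9 FPKM in facial libraries and 3.42, 4.85 and 7.20 FPKM in limb libraries. Neural tissue was lower than facial tissue (-2.52, SE 0.19, adjusted p = 1.89e-13) and limb (-1.37, SE 0.25, adjusted p = 2.40e-05) without overlap, and facial tissue was higher than limb (1.15, SE 0.24, adjusted p = 0.000586), a call not made within replicates 4 to 6 alone (0.75, adjusted p = 0.417). Dkk3, a divergent family member, was higher in FNP, at 9.88, 13.8 and 17.8 FPKM, than in MNP, at 3.86, 4.87 and 9.33 FPKM (1.20, SE 0.21, adjusted p = 9.63e-05), and higher in facial tissue, at 3.86, 9.33 and 17.8 FPKM, than in limb, at 2.02, 2.78 and 4.81 FPKM (1.19, SE 0.17, adjusted p = 3.39e-06). Dkk2 was called in 4 pairs outside these comparisons, lower in vB than in FNP or MNP (12.1% and 13.4% of all genes called) and higher in FNP and MNP than in limb (4.21% and 2.71%), with tissue means of 3.31 to 8.69 FPKM. The Dickkopf receptor Kremen1 had 1.03, 5.76 and 7.90 FPKM in neural and 7.16, 11.6 and 14.9 FPKM in facial libraries (-1.06, SE 0.18, adjusted p = 4.67e-06), a call lost without dB replicate 4 (-0.96) or vB replicate 4 (-0.93).

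Dkk4, an inhibitor known from ectodermal placodes, was close to absent outside the face. Neural libraries had at most 0.348 FPKM, the facial libraries ran from 0.299 to 6.98 FPKM, and limb libraries had at most 0.199 FPKM. Neural tissue was lower than facial tissue (-1.42, SE 0.10, adjusted p = 1.10e-13), and facial tissue was higher than limb (1.44, SE 0.13, adjusted p = 2.14e-10). FNP, at 0.553, 1.11 and 1.87 FPKM (-1.47, SE 0.17, adjusted p = 8.39e-08), and MNP, at 0.299, 0.778 and 1.48 FPKM (-1.77, SE 0.17, adjusted p = 3.53e-09), were lower than MXP, whose libraries had 3.16, 4.44, 5.09, 5.78 and 6.98 FPKM. Neither overlapped MXP. The call against MXP was kept for both when any single library was left out and within replicates 1 to 3 and 4 to 6.

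**Figure D4:**
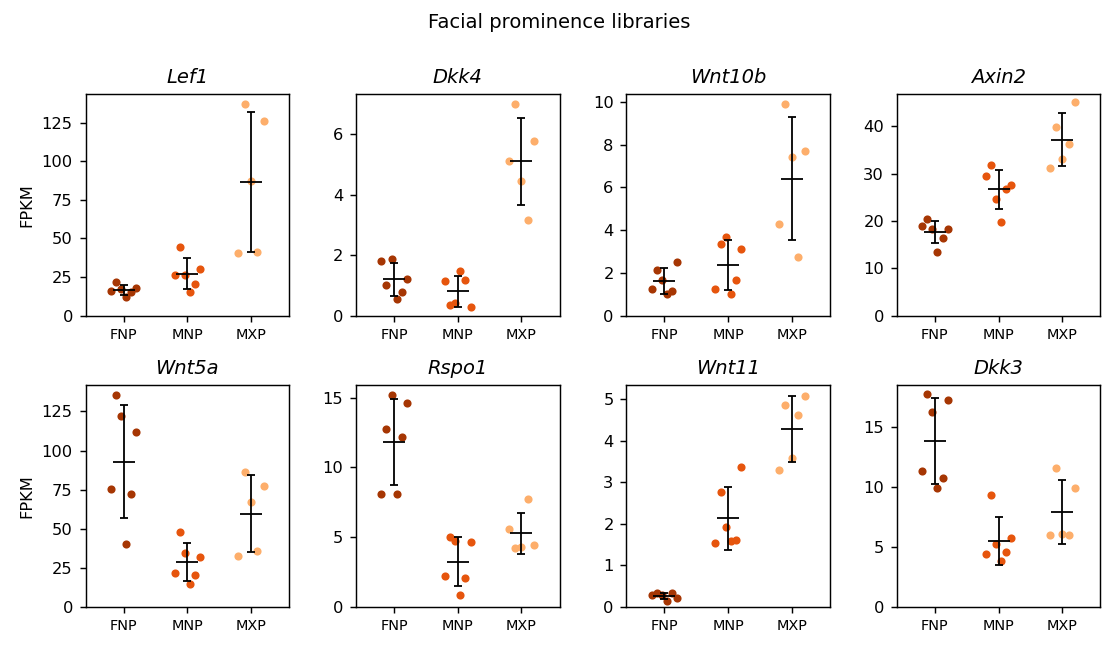
FPKM of 8 members in the FNP, MNP and MXP libraries, 1 point per library, with bars at the mean and SD (n = 6, 6 and 5). Dkk4 and Lef1 are highest in MXP, Wnt11 is near 0 in FNP, and Wnt5a, Rspo1 and Dkk3 are highest in FNP.

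Of the R-spondins, secreted enhancers of Wnt signalling, Rspo1 was highest in dB and, within the face, in FNP. It had 19.5, 24.8 and 36.4 FPKM in dB, 3.52, 6.01 and 9.78 FPKM in vB, 8.08, 12.5 and 15.2 FPKM in FNP, 0.883, 3.43 and 4.98 FPKM in MNP, 4.25, 4.30, 4.44, 5.55 and 7.76 FPKM in the MXP libraries and 0.211, 0.733 and 1.33 FPKM in limb. The dB libraries were above all others, and the limb libraries were below all but those of MNP. It was higher in dB than in vB (1.87, SE 0.25, adjusted p = 3.43e-06), in FNP than in MNP (1.68, SE 0.25, adjusted p = 7.82e-06), in neural tissue than in limb (3.03, SE 0.21, adjusted p = 8.46e-14) and in facial tissue than in limb (1.99, SE 0.20, adjusted p = 3.20e-09). Its calls between neural and facial tissue (1.04, SE 0.16, adjusted p = 1.42e-06) and between FNP and MXP (1.02, SE 0.26, adjusted p = 0.0101) sat at the fold threshold. The neural call was lost without dB replicate 5 (0.99), vB replicate 3 (0.98) or MNP replicate 4 (0.97), and the FNP call without any of FNP or MXP replicates 2, 3 or 6 (0.95 to 1.00).

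Rspo3 was higher in dB too, at 20.0, 24.7 and 33.7 FPKM in dB and 3.48, 8.25 and 17.6 FPKM in vB (1.65, SE 0.28, adjusted p = 0.000221), and it was higher in neural tissue, at 3.48, 18.8 and 33.7 FPKM, than in facial tissue, at 1.72, 4.99 and 14.5 FPKM (1.25, SE 0.19, adjusted p = 7.19e-07). In FNP it was lower than in MXP, at 2.65, 4.20 and 5.14 FPKM against 4.99, 8.49, 9.42, 12.9 and 14.5 FPKM (-1.08, SE 0.30, adjusted p = 0.0202), a call lost without FNP replicate 4 (-0.99) or MXP replicate 2 (-0.94) or 6 (-0.98). Rspo2, which is needed for limb and lip development in mice, had 3.81, 15.4 and 25.0 FPKM in neural libraries, 6.42, 17.4 and 28.9 FPKM in facial libraries and 2.87, 4.79 and 6.47 FPKM in limb libraries. Neural tissue was higher than limb (1.45, SE 0.20, adjusted p = 1.54e-07), and facial tissue was higher than limb (1.60, SE 0.19, adjusted p = 5.97e-08). Rspo4, the R-spondin mutated in human absence of nails, was measured mainly in limb. It had at most 0.161 FPKM in neural libraries (-1.93, SE 0.18, adjusted p = 4.09e-11) and 0.390 FPKM in facial libraries (-1.73, SE 0.17, adjusted p = 8.91e-10), against 1.13, 3.02 and 7.59 FPKM in limb libraries.

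Of their receptors, Lgr5 was lower in neural tissue, at 0.434, 1.03 and 2.20 FPKM, than in facial tissue, at 0.819, 3.99 and 7.77 FPKM (-1.10, SE 0.18, adjusted p = 2.63e-06), and higher in facial tissue than in limb, at 0.548 to 1.37 FPKM (1.13, SE 0.22, adjusted p = 0.000347). Lgr4 was lower in dB (-1.32, SE 0.12, adjusted p = 6.92e-11) and vB (-1.11, SE 0.12, adjusted p = 2.15e-09) than in FNP, where it averaged 20.9 ± 2.68 FPKM (SD, n = 6), beside 9.62% and 12.1% of all genes called. Lgr6 was called lower in both brain tissues than in MXP (11% of all genes called for dB and 13.6% for vB), at no more than 0.085 FPKM in any brain library.

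The nuclear factors carry the signal of β-catenin to DNA. Tcf7l2 was the factor of the dorsal brain, at 42.1, 62.8 and 88.1 FPKM in dB and 11.7, 13.7 and 23.0 FPKM in vB (1.97, SE 0.21, adjusted p = 8.71e-08), with no overlap. Neural against facial tissue gave a higher level as well (1.14, SE 0.14, adjusted p = 1.11e-08), with every dB library above the facial libraries, at 6.22 to 21.3 FPKM, 5 of the 6 vB libraries within that range and vB replicate 6 above it at 23.0 FPKM. The gene spans chr19:55741810-55933655 (mm10, plus strand), and the files split it into 15 transcripts. Of these, 13 begin at the first promoter, 1 begins at chr19:55895321, within an intron of the long transcripts, and 1 begins at chr19:55917354. The N-terminal stretch that binds β-catenin is encoded by the first exons, which lie before the internal start.

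Transcript estimates placed much of the dorsal Tcf7l2 at that internal start. Its transcript had 22.6, 30.6 and 48.7 FPKM in dB libraries and 1.48, 3.90 and 12.4 FPKM in vB libraries, and no facial or limb library had more than 1.27 FPKM. It made up 51.3% ± 3.53 of the Tcf7l2 FPKM in dB, 28.1% ± 15.2 in vB, 2.16% ± 2.75 in FNP, 2.92% ± 3.58 in MNP, 0.867% ± 1.94 in MXP and 1.11% ± 1.73 in limb (SD, n = 6, MXP n = 5). The 13 long transcripts together averaged 16.9 ± 4.01 FPKM in dB and 7.15 ± 2.87 in vB. Outside the brain they averaged 14.0 ± 2.01 in FNP, 9.12 ± 2.22 in MNP, 9.46 ± 2.25 in MXP and 11.1 ± 3.8 in limb. The dB libraries, at 13.1 FPKM or more, were above those of vB, MNP and MXP and overlapped those of FNP and limb. The remaining transcript was also higher on average in dB, at 13.9 ± 4.13 FPKM, than in vB, at 3.56 ± 2.41. It averaged 2.35 to 4.29 FPKM in the facial tissues and limb. In the fit over all transcripts, where 0.994% were called between dB and vB and 9.98% between neural and facial tissue, the internal transcript was higher in dB than in vB (2.73, SE 0.30, adjusted p = 3.49e-07) and in neural than in facial tissue (3.36, SE 0.20, adjusted p = 7.69e-16). The split by transcript was made after the values were seen, and reads in shared exons are assigned to transcripts by estimate.

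**Figure D5:**
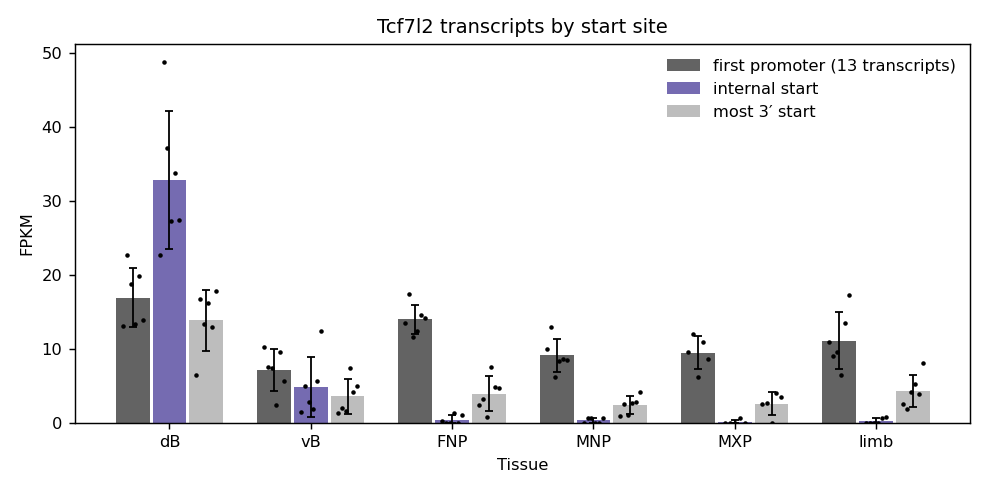
FPKM of Tcf7l2 transcripts by tissue, as the sum of the 13 transcripts from the first promoter, the transcript from the internal start and the transcript from the most 3′ start, with bars at the mean, error bars of 1 SD and 1 point per library (n = 6, MXP n = 5). The internal start averages 32.8 FPKM in dB, 4.87 in vB and 0.432 or less in each facial tissue and limb.

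Transcript estimates placed the internal start of Tcf7l2 mainly in the brain and the first promoter in every tissue. No window is shown for the most 3′ start. The 250 bases before the first and the internal start are shown, with those of Dkk1, a known target of the pathway, for comparison. They come from RefSeq on GRCm38.p6, the assembly of the mm10 build, 5′ to 3′ on the strand of the gene, with capitals on any match, on either strand, to the Tcf/Lef heptamer CTTTGAA, to its variant CTTTGAT, to the variant CTTTGTA or to the variant CTTTGTT. The internal start has 1 match, 14 bases before the first transcribed base, and the first promoter has 0.
Tcf7l2 internal start, chr19:55895071-55895320: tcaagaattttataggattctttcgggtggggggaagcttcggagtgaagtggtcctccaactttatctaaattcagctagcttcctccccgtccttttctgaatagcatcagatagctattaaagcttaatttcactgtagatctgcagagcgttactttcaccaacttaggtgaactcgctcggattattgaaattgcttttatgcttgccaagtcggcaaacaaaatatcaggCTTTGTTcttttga
Tcf7l2 first promoter, chr19:55741560-55741809: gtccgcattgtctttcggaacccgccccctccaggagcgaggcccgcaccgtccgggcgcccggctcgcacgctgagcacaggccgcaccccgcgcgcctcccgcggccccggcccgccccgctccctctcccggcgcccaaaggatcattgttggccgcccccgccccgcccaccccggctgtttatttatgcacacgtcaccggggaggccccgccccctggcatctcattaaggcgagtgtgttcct
Dkk1, chr19:30549497-30549746 (minus strand): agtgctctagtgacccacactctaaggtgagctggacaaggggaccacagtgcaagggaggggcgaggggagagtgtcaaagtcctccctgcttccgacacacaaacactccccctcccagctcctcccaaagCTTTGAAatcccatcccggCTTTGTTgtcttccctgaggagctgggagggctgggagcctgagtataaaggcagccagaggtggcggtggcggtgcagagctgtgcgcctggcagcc
Dkk1 has 2 matches that begin 117 and 98 bases before its start. RefSeq windows of 250 bases before to 50 bases after a start were given for 40 of the 59 members, as 48 windows, and 7 of these (14.6%) held a match, beside 16.9% of all 32851 windows. A match is a run of letters in the window and says nothing of binding. The windows of the induced genes Axin2 and Nkd1 held 0, and Notum had no window.

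Lef1 was the factor of the maxillary prominence. FNP had 11.8, 16.7 and 21.5 FPKM, MNP 15, 26.3 and 44.5 FPKM and the MXP libraries 40.5, 41.5, 87.4, 126 and 137 FPKM. MXP replicates 1 and 5 were the low ones, all 5 MXP libraries were above FNP, and MNP overlapped with MXP through MNP replicate 2. Lef1 was lower in FNP than in MXP (-2.15, SE 0.26, adjusted p = 2.57e-07) and lower in MNP than in MXP (-1.53, SE 0.26, adjusted p = 0.000220), and the call against MNP was not made within replicates 1 to 3 (adjusted p = 0.0668) and within replicates 4 to 6 (adjusted p = 0.159). It was lower in neural tissue, at 5.61, 12.4 and 18.4 FPKM, than in facial tissue, at 11.8, 26.2 and 137 FPKM (-1.51, SE 0.16, adjusted p = 8.67e-10). In the same 5 MXP libraries, mesenchymal markers summed to 546 and 829 FPKM in replicates 1 and 5 and to 754 to 1167 FPKM in the others, and their part was not tested. Tcf7 was the factor of the limb, with 3.00, 9.75 and 18.1 FPKM in neural libraries, 7.43, 10.7 and 21.1 FPKM in facial libraries and 18.7, 26 and 40.9 FPKM in limb libraries. Neural tissue was lower than limb (-1.58, SE 0.22, adjusted p = 2.59e-07), and facial tissue was lower than limb (-1.13, SE 0.21, adjusted p = 0.000161). Tcf7l1, which mostly represses, was called only between vB, at 16.4 ± 8.36 FPKM, and FNP, at 39.4 ± 5.47 FPKM (SD, n = 6 each; -1.36, SE 0.24, adjusted p = 2.40e-05).

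The 3 induced genes are commonly read as a sign of canonical activity. Axin2 had 15.7, 26.4 and 32.7 FPKM in dB and 3.79, 7.22 and 14.1 FPKM in vB, without overlap (1.67, SE 0.20, adjusted p = 4.54e-07). In the face it had 13.5, 18.3 and 20.3 FPKM in FNP, below its 31.2, 33.1, 36.3, 39.9 and 45.2 FPKM in MXP (-1.03, SE 0.20, adjusted p = 0.000791), a call lost without FNP replicate 4 (-0.96) or MXP replicate 6 (-0.96), and within replicates 1 to 3 alone (-0.82). Nkd1 had 11.8, 16.6 and 17.6 FPKM in dB and 4.61, 6.89 and 12.4 FPKM in vB, with vB replicate 5 highest. Its difference stood at the fold threshold (1.00, SE 0.23, adjusted p = 0.00628) and fell under it without dB replicate 1, 2, 3 or 5 or vB replicate 2, 3 or 6 (0.89 to 0.99). Notum, a secreted enzyme that inactivates Wnts, followed another order. It was lower in neural tissue, at 0.392, 0.517 and 1.07 FPKM, than in facial tissue, at 1.04, 4.15 and 6.99 FPKM (-1.66, SE 0.11, adjusted p = 6.59e-15), and than in limb, at 4.40 to 7.01 FPKM (-2.06, SE 0.14, adjusted p = 5.49e-14).

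Of 24 other genes of Wnt secretion and of the intracellular machinery, 4 were called between some pair of tissues, where 21.3% of all genes tested were. Apc2, an Apc relative of neurons, was higher in neural tissue than in facial tissue (2.43, SE 0.29, adjusted p = 1.34e-08) and limb (3.13, SE 0.39, adjusted p = 3.41e-08), and the corepressor Tle2 was lower in neural than in facial tissue (-1.26, SE 0.20, adjusted p = 3.23e-06). Wls, which carries Wnts to the cell surface, was higher in dB, at 69.8 ± 11.6 FPKM, than in vB, at 32.1 ± 18.4 FPKM (SD, n = 6 each; 1.26, SE 0.21, adjusted p = 0.000167). Of 16 tested surface modulators and targets, 14 were called in some pair. Neural against facial tissue, where 6.64% of all genes were called higher and 4.64% lower, gave 1 higher (Sp5, a direct target) and 8 lower: Rnf43, Nkd2, Kremen2, Sostdc1, Ptk7, Dact1, Dact3 and Bambi. Their log2 fold changes were 1.28 for Sp5 and -1.17, -1.72, -2.53, -2.69, -1.19, -1.16, -1.52 and -1.66 for the others in that order. Neural against limb, with 8.05% of all genes higher and 4.36% lower, gave 2 higher (Gpc4, 1.27, and Sp5, 1.48) and 7 lower: Nkd2 (-2.55), Kremen2 (-2.20), Sost (-2.64), Sostdc1 (-1.49), Ptk7 (-1.24), Dact3 (-1.30) and Bambi (-1.82). The median over the 16 genes was -1.04 for neural against facial tissue, -0.62 for neural against limb and 0.38 for dB against vB.

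Among those modulators, Sost, an antagonist best known from bone, averaged 0.252 FPKM or less in each brain and facial tissue and 6.87 ± 1.91 FPKM in limb (SD, n = 6), and was lower in facial tissue than in limb (-2.72, SE 0.10, adjusted p = 1.03e-21). Sostdc1, an ectodermal antagonist, and Apcdd1, a membrane inhibitor induced by the pathway, were higher in facial tissue than in limb (1.20, SE 0.22, adjusted p = 0.000150, and 1.59, SE 0.25, adjusted p = 1.32e-05), higher in dB than in vB (1.06, SE 0.27, adjusted p = 0.0156, and 1.41, SE 0.30, adjusted p = 0.00320) and lower in FNP than in MXP (-1.12, SE 0.28, adjusted p = 0.00976, and -1.87, SE 0.32, adjusted p = 9.86e-05). Apcdd1 averaged 32.2 ± 14.3 FPKM in FNP, 55.7 ± 19.8 in MNP and 117 ± 46.8 in MXP (SD, n = 6, 6 and 5). Kremen2, a receptor of Dickkopf proteins, was lower in FNP than in MXP as well (-1.70, SE 0.22, adjusted p = 8.79e-07).

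Exons of 11 members share bases with a gene on the opposite strand in GENCODE M21, and the strand of the libraries was not given in the sources used here. Fzd5 shares 1233 bases, Lef1 1208, Rspo3 404, Wnt11 364, Wnt5a 358 and Sfrp2 347. Wnt7b shares 324 bases, Axin2 209, Tcf7l1 179 and Fzd6 152, and Notum shares 708 with 1 gene and 210 with another. A part of the level of each of these members could belong to the partner.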

How the data were processed

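Paired-end RNA-seq was done on 35 libraries of 6 tissues. The authors deposited 1 Cufflinks transcript table per library, with FPKM and coverage for UCSC transcripts of the mm10 build; the aligner and strand setting behind them were not given in the sources used here, and the submitters' processing notes also name Bowtie2 and DESeq2. Deposited FPKM values were summed per gene symbol over 59055 of 59120 transcripts, and 65 transcripts were left out. The deposited coverage served only to gauge depth: coverage per FPKM ran from 2.70 to 5.51. Depth in reads is unknown, so no counting interval was computed.

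The test was limma 3.58.1 in R 4.3.3 (trend and robust settings) on log2(FPKM + 1) over all 35 libraries, with 1 mean per tissue, the 13934 genes whose mean reached 1 FPKM in 1 or more tissues, Benjamini-Hochberg adjustment over all of them in each comparison and a call at adjusted p below 0.05 with a fold of at least 2. Category contrasts averaged the tissue means. The procedure was tested on simulated data. Tables were read with pandas 2.3.3 in Python 3.11.15. Members and lists were chosen with earlier results of these data known. Each member called in a comparison is named with values, the 3 largest differences come first, and members without a call are given by range. Alternatives were another added constant, no filter, other scalings, replicate and run blocks, replicates 1 to 3 or 4 to 6 alone, each library left out, vB replicates 1, 4 and 5 left out and a fold of 1.5. Leaving out dB 4, vB 4 and limb 4 together and the fit over transcripts were chosen after seeing the data.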

Additional observations from a re-analysis of the deposited data

Results flagged for a closer look

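Of 265 groups of 1 member in 1 tissue, 28 held a library at the end of the range with a wide gap to the rest, where chance gives about 1 in 20. Of these, 21 fell on replicate 4 of dB, limb or vB, and in each of those the library was the lowest of its tissue.

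In dB replicate 4, 10 members were low: Wnt6 (1.21 FPKM, the others 2.71 to 3.88), Wnt7a (4.45 FPKM, the others 6.26 to 7.46), Wnt7b (18.7 FPKM, the others 37.3 to 43.8), Wnt10a (0.399 FPKM, the others 1.13 to 1.41), Fzd2 (22.9 FPKM, the others 40.7 to 48.8), Fzd7 (6.12 FPKM, the others 9.43 to 11.4), Fzd9 (4.94 FPKM, the others 7.86 to 10), Lrp5 (3.07 FPKM, the others 6.78 to 9.4), Ryk (23.8 FPKM, the others 34.4 to 37.5) and Sfrp1 (30.2 FPKM, the others 62.6 to 82.6). In limb replicate 4, 7 were low: Wnt6 (7.27 FPKM, the others 15.2 to 20.3), Fzd10 (8.5 FPKM, the others 22.8 to 25.4), Lrp5 (4.18 FPKM, the others 11.8 to 19.5), Ryk (26.1 FPKM, the others 40.8 to 46.7), Kremen1 (2.74 FPKM, the others 7.89 to 11.3), Axin2 (8.06 FPKM, the others 14.1 to 18.3) and Nkd1 (6.01 FPKM, the others 12 to 13.2). In vB replicate 4, 4 were low: Wnt7b (9.26 FPKM, the others 46.8 to 70.3), Fzd1 (7.96 FPKM, the others 15.4 to 19.7), Fzd8 (1.82 FPKM, the others 11.9 to 24.2) and Fzd9 (2.04 FPKM, the others 4.56 to 5.6).

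The remaining 7 were spread over other libraries. Wnt3a was high in dB replicate 5 at 8.27 FPKM, and Tcf7 was high in the same library at 18.1 FPKM. Wnt5b was high in MXP replicate 5 (8.16 FPKM), Fzd4 in MNP replicate 2 (8.75 FPKM) and Sfrp2 in FNP replicate 2 (53.4 FPKM). Lrp5 was low in MXP replicate 3 (8.68 FPKM) and Rspo2 in vB replicate 1 (3.81 FPKM).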

How the results depend on the processing

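Of the 99 calls between a member and 1 of the 7 comparisons, 87 were kept with any single library left out, 63 under every other setting and 62 under all of them, and 0 changed sign. With 0.1 added in place of 1, neural against limb gave 32 members (15 higher, 17 lower), facial against limb 20 (14 higher, 6 lower) and FNP against MNP 8 (5 higher, 3 lower). At a fold of 1.5, neural against limb gave 37, facial against limb 22, FNP against MNP 11, FNP against MXP 19 and MNP against MXP 8. The shares of all genes called under these settings are not given here. The higher counts therefore cannot be read as a result about the members. Replicates 1 to 3 alone gave 1 member between MNP and MXP. Replicates 4 to 6 alone kept 68 of the 99 calls, with 6 members between dB and vB, 2 between FNP and MNP, 4 between FNP and MXP and 1 between MNP and MXP, from a fit on fewer libraries. That fit held only replicates 5 and 6 of MXP, which has no replicate 4. Leaving out each library in turn gave 2 to 5 members between MNP and MXP, 13 to 18 between dB and vB, 8 to 14 between FNP and MXP, 5 between FNP and MNP, 13 to 14 between facial tissue and limb, 28 to 30 between neural and facial tissue, 21 to 24 between neural tissue and limb and 47 to 48 in some pair. The 5 between MNP and MXP came without MNP replicate 2, MXP replicate 1 or MXP replicate 5.

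Replicate numbers are shared across tissues, and libraries of the same number correlated in their deviations (median r 0.34, above 0.1 for 78 of 85 pairs, against a median of -0.07 for different numbers), and 31 of 35 libraries were closest to one of their own number. Since no label ties a number to shared embryos and some same-number pairs were at 0.1 or below (lowest 0.01), the numbers were not taken to pair the libraries. For replicates 1 to 3 the number and the sequencing run largely went together, and their parts in these correlations were not separated. The main test had no term for either. With the replicate number as a block the counts were 30, 21, 13, 15, 5, 12 and 3 for the comparisons in the order neural against facial, neural against limb, facial against limb, dB against vB, FNP against MNP, FNP against MXP and MNP against MXP, and Axin2 between FNP and MXP was no longer called (-0.91). With the run as a block, Lgr5 between facial tissue and limb and Nkd1 between dB and vB were no longer called. Without dB 4, vB 4 and limb 4, Fzd2 (-0.88), Lrp5 (-0.94) and Kremen1 (-0.83) were no longer called between neural and facial tissue. Without vB replicates 1, 4 and 5, dB against vB gave 22 members. The cause of these changes was not tested. FPKM without read counts limits what can be said of genes near 0, and 1 library per pool leaves embryos within a pool unseen.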
